A study of Rattus norvegicus with 6 samples.

Results

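The Wnt family genes described here were the rows whose symbol names a Wnt ligand, a Frizzled receptor, the co-receptors Lrp5 and Lrp6, an R-spondin, a secreted antagonist (Sfrp, Frzb, Dkk or Wif1) or a transcription factor of the TCF/LEF group. Symbols alone chose them, with no measured value. They were 43 of 21648 genes in the table, and 34 of the 43 had enough counts to be tested. Axin1 and Axin2, which belong to the same choice, were not analysed here.

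The RNA came from wild-type neonatal rat ventricular myocytes, heart muscle cells taken from pups at postnatal day 3. Cultures received the solvent DMSO or 10 µM of compound 915 for 72 h, with 3 libraries in each group. By the design text 915 activates ERRs, the estrogen-related receptors, which are transcription factors of energy metabolism. Cells of both groups had been pre-plated for 90 min to remove fibroblasts and plated in serum with 100 µM bromodeoxyuridine, which limits division of other cells. They were then kept in a medium with insulin, transferrin and selenium. The sample titles call the 3 libraries of a group biological replicates. Whether they came from separate cell isolations is not stated, so a p-value sets a difference against the spread of these 3 libraries. The table held 36799845 to 40010826 counts in a DMSO library and 30639244 to 38078137 in a 915 library. Levels are the CPM values of the authors, counts scaled to 1 common library total. A count of 0 is compatible with up to 3 counts, worth 0.0698 to 0.0917 CPM by library (counting error only). Where values are listed, they are for libraries 1, 2 and 3 of a group in that order.

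As background, secreted Wnt proteins bind Frizzled receptors, together with Lrp5 or Lrp6 when the signal runs through β-catenin. That signal spares β-catenin from breakdown, and β-catenin then switches on genes with TCF/LEF factors. R-spondins bind Lgr receptors and keep Frizzleds at the cell surface, while Sfrp, Frzb and Wif1 proteins bind Wnts outside the cell and Dkk1 blocks the Lrp co-receptors. Wnt5a and Wnt11 are best known for signals that do not need β-catenin, such as planar cell polarity. In the heart the pathway is known for its part in development, in the epicardium and in the fibroblast response to injury.

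Of the 43 genes, 15 were lower with 915, 2 were higher, 17 were tested and did not pass, and 9 were too scarce to test. Over all genes tested, 49.8% were called in either direction. Genes lower with 915 made up 44.1% of the 34 tested, where lower calls made up 25.5% of all 14253 genes tested. Higher calls made up 5.88% of the 34 and 24.3% of all genes tested. A call is an adjusted p under 0.05 in edgeR's quasi-likelihood test, adjusted over all genes tested. The median log2 fold change was −0.37 over the 34 and −0.010 over all genes tested. The decreases reached at least 2-fold in 7 of the genes called lower (Rspo2, Wnt2b, Sfrp5, Wnt4, Wnt16, Rspo1 and Wnt11). Lower calls of at least 2-fold made up 6.9% of all genes tested. In 17 of the 34 all 915 libraries lay below all DMSO libraries, against 32.8% of all genes tested. In 2, Wnt9a and Dkk3, all 915 libraries lay above, against 23.9%. Groups that do not overlap, in either direction, were found for 56.7% of all genes tested.

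Decreases were found among scarce and abundant genes. Of 15 tested genes with a mean under 5 CPM, 8 were lower and 0 higher. Over all tested genes under 5 CPM, 23.7% were lower and 7.38% higher. Of 19 with a mean of at least 5 CPM, 7 were lower and 2 higher, and the shares over all tested genes at that level were 26.2% and 31.1%. This limit was chosen after the levels were seen. A scarce gene could be tested because of its DMSO libraries alone. Among the genes called, this touched Sfrp5, which was past the minimum of about 10 counts in 3 DMSO libraries and 1 915 library.

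**Figure D1:**
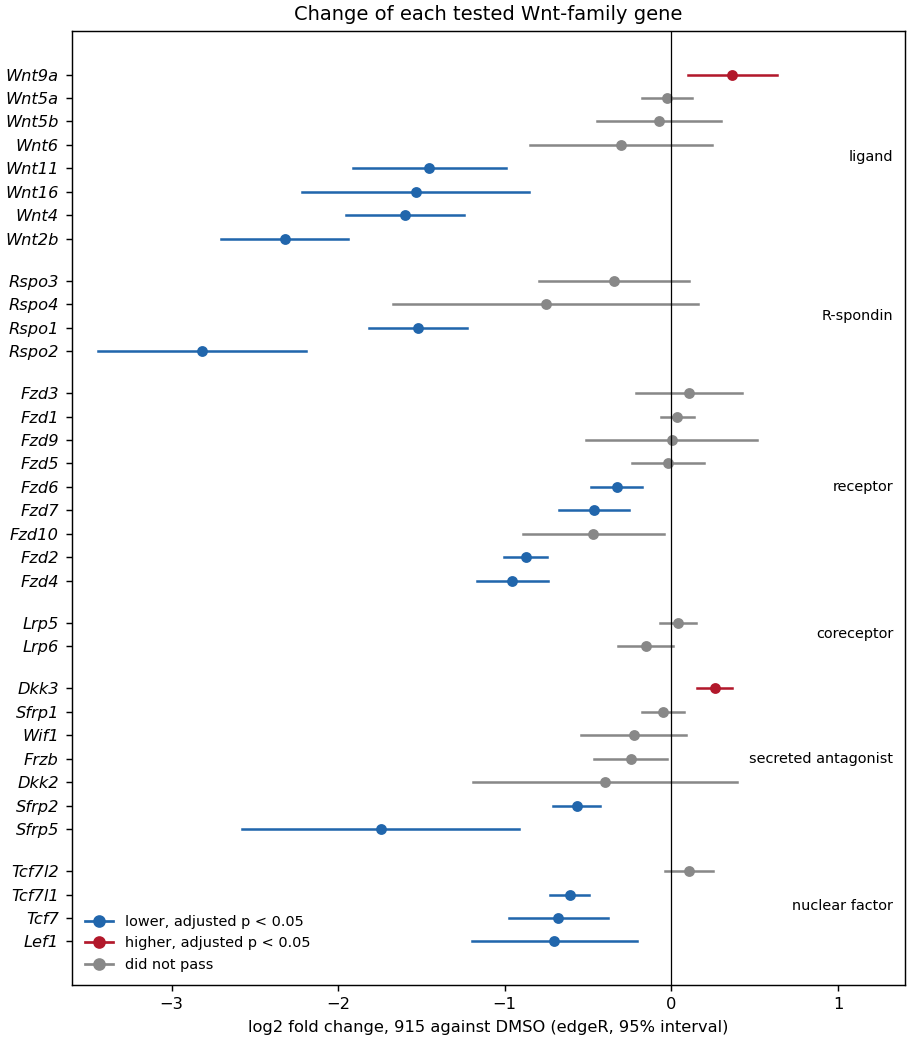
Log2 fold change of each of the 34 tested Wnt family genes, 915 against DMSO, with its 95% interval from edgeR, grouped by role (horizontal axis in log2 units). Blue genes were lower and red genes higher at an adjusted p under 0.05, and gray genes did not pass. The lowest values are those of Rspo2 (−2.82) and Wnt2b (−2.32), and the red genes are Wnt9a and Dkk3.

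Markers of several cell types moved in these libraries. All 13 measured cardiomyocyte markers were present, 12 of them higher with 915 and 1 (Myl7) lower, with a summed level of 24189 to 25497 CPM in DMSO and 34352 to 34868 CPM in 915 libraries. Of 13 fibroblast markers 10 were lower and 2 higher, and their summed level was 27776 to 29548 CPM in DMSO and 15041 to 15804 CPM in 915. Most of that sum came from the matrix protein genes Col1a1, Col3a1 and Fn1. Their means were 11988, 7067 and 6868 CPM in DMSO and 6289, 2826 and 3872 CPM in 915. The higher genes were Dcn and Pdgfra, and Postn did not pass (all named after their values were seen). Of 7 epicardial and mesothelial markers 6 were lower and 0 higher (summed level 119 to 125 CPM and 66.9 to 69.0 CPM). Smooth muscle and pericyte markers had 5 of 9 genes lower and 2 higher (2747 to 2888 CPM and 1879.9 to 1976 CPM). The higher genes were Des and Abcc9, and Des alone held 924 CPM of the sum in DMSO and 1090 CPM in 915 on average. Endothelial markers were lower in 4 of 10 and higher in 1 (287 to 308 CPM and 248 to 264 CPM). Macrophage and leukocyte markers were lower in 5 of 11 and higher in 0 (216 to 234 CPM and 110.1 to 133 CPM). Neural crest and Schwann cell markers were lower in 4 of 6 and higher in 0 (47.0 to 47.7 CPM and 32.2 to 35.5 CPM). Over all genes tested 25.5% were lower and 24.3% higher. Without DMSO library 2, 2 endothelial markers were higher. C1qc, a lower macrophage marker, was past the minimum count in 3 DMSO libraries and 1 915 library. No measured marker of any list was at 0 in all libraries. In such bulk samples fewer cells of a type and less RNA per cell cannot be told apart. The part of these shifts in the changes of Wnt family genes was not tested.

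**Figure D2:**
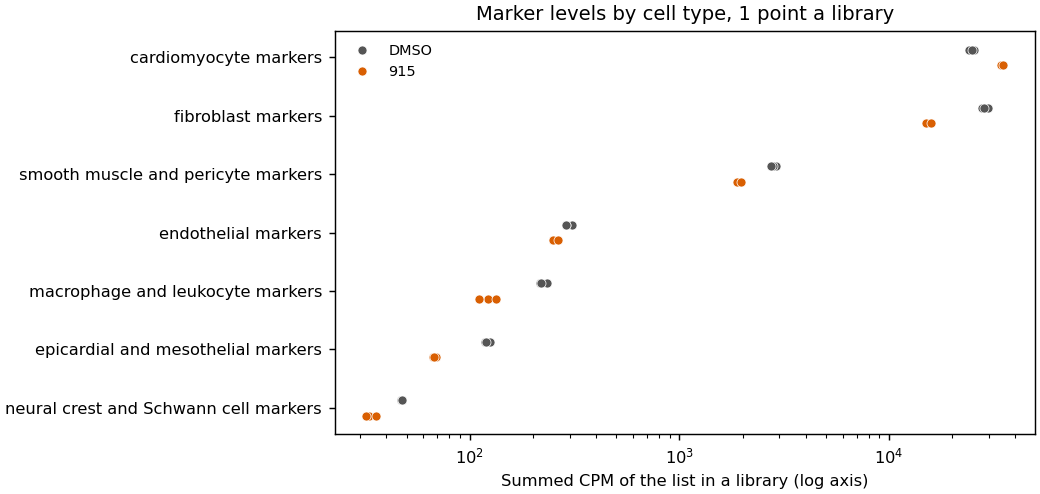
Summed CPM of each marker list in each library (log axis, 1 point a library, gray for DMSO and orange for 915). The cardiomyocyte points of 915 lie to the right of DMSO, and the points of the other 6 lists lie to the left.

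The ligand genes split. Of 15, Wnt2b, Wnt4, Wnt11 and Wnt16 were lower with 915, Wnt9a was higher, Wnt5a, Wnt5b and Wnt6 did not pass and 7 were too scarce to test. Wnt2b (ENSRNOG00000014385), a ligand that can act through β-catenin, was at 6.26, 6.69 and 6.96 CPM under DMSO and at 1.62, 1.19 and 1.03 CPM under 915. The groups were far apart, and 915 library 1 was the highest of its group. The mean went from 6.64 ± 0.354 to 1.28 ± 0.305 CPM (SD, n = 3 each), 4.99-fold lower by edgeR (log2 fold change −2.32 ± 0.178 (SE), edgeR adjusted p = 9.62e-08). Wnt4 (ENSRNOG00000013166), a ligand known from kidney and gonad development, was at 5.21, 5.37 and 4.48 CPM under DMSO and at 1.60, 1.50 and 1.70 CPM under 915. No library of either group came near the other group. Its decrease was 3.03-fold (log2 fold change −1.60 ± 0.165 (SE), edgeR adjusted p = 1.98e-06).

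Wnt11 (ENSRNOG00000015982), a ligand known for its part in heart development, was at 2.79, 3.47 and 3.69 CPM under DMSO and at 0.968, 1.38 and 1.18 CPM under 915, 2.74-fold lower (log2 fold change −1.45 ± 0.215 (SE), edgeR adjusted p = 6.43e-05). Its highest 915 library lay below its lowest DMSO library. Wnt16 (ENSRNOG00000005781), known from bone and joint tissue, rested on few reads, with counts of 64, 60 and 71 under DMSO and 16, 12 and 31 under 915. The decrease was 2.90-fold (log2 fold change −1.53 ± 0.317 (SE), edgeR adjusted p = 0.00108), with a 95% interval of −2.22 to −0.85 on the log2 scale. In Wnt16 the third 915 library was the highest of its group.

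Wnt9a (ENSRNOG00000003066), a ligand known from joint and blood stem cell development, was the ligand that rose. It was at 6.68, 6.14 and 7.26 CPM under DMSO and at 9.63, 7.95 and 7.43 CPM under 915. All 915 libraries lay above all DMSO libraries, library 1 of 915 furthest. The increase was 1.29-fold (log2 fold change 0.37 ± 0.124 (SE), edgeR adjusted p = 0.0241), and its call was lost without DMSO library 1, DMSO library 2 or 915 library 1 (log2 fold change 0.36, 0.31 and 0.25) and with library sizes in place of TMM scaling (0.31). Over the alternatives its edgeR or DESeq2 adjusted p ran from 0.0156 to 0.133. Wnt3a, the neighbour of Wnt9a in the RefSeq annotation, was at 0 counts in all 6 libraries.

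Wnt5a (ENSRNOG00000015618), the best known ligand of β-catenin-independent signals, was at 22.5, 23.4 and 22.4 CPM under DMSO and at 20.8, 21.3 and 22.6 CPM under 915. The groups overlapped, and the interval of its log2 fold change was −0.18 to 0.12 around −0.028 (edgeR adjusted p = 0.766). Its close relative Wnt5b was at 3.56, 3.20 and 3.42 CPM under DMSO and at 3.19, 3.70 and 2.51 CPM under 915 (log2 fold change −0.073, interval −0.44 to 0.30, edgeR adjusted p = 0.751). The lowest and the highest of its 6 values were both in the 915 group. Wnt6 was at 1.91, 2.38 and 1.65 CPM under DMSO and at 2.09, 1.19 and 1.35 CPM under 915 (log2 fold change −0.30, interval −0.85 to 0.24, edgeR adjusted p = 0.346), and its interval reaches to a decrease of 1.80-fold. Wnt3, Wnt7a, Wnt7b, Wnt8a, Wnt8b and Wnt9b had between 0 and 13 counts in any library. Each was past the minimum count in at most 1 library, and none was tested. Wnt7b, for example, had 2, 7 and 10 counts under DMSO and 3, 0 and 0 under 915, and Wnt9b had 7, 6 and 0 and 0, 0 and 1. Both were chosen as examples after their values were seen.

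**Figure D3:**
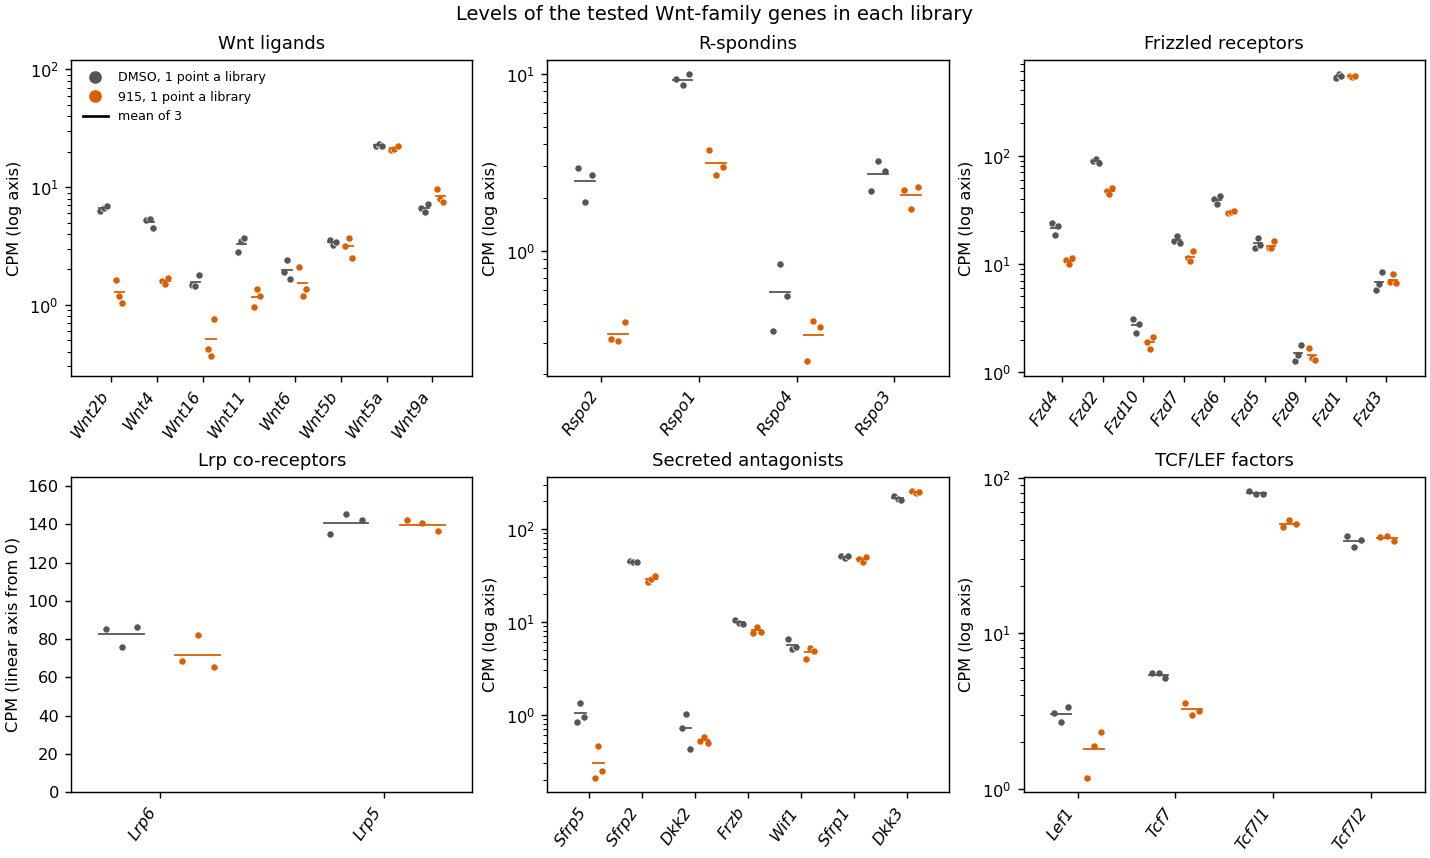
CPM of the 34 tested Wnt family genes in each library, by role (vertical axis logarithmic, except for the Lrp panel, which is linear from 0), with DMSO in gray, 915 in orange, 1 point a library and a bar at the mean of 3. The groups lie apart for Wnt2b, Wnt4, Rspo1 and Rspo2 and overlap for Wnt5a, Fzd1, Lrp5 and Sfrp1.

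R-spondin genes were lower in 2 of 4 cases. Rspo2 (ENSRNOG00000037687), which amplifies Wnt signals in limb and lung development, had the lowest log2 fold change of the family. Its counts were 126, 78 and 106 under DMSO and 12, 10 and 16 under 915, which is 2.93, 1.88 and 2.68 CPM under DMSO and 0.314, 0.306 and 0.394 CPM under 915. Every 915 library was under 0.4 CPM while every DMSO library was above 1.8 CPM. The decrease was 7.04-fold (log2 fold change −2.82 ± 0.291 (SE), edgeR adjusted p = 2.04e-06), with a 95% interval of 4.57-fold to 10.9-fold. Rspo1 (ENSRNOG00000009656), known from ovary development and gut crypts, was at 9.35, 8.64 and 9.97 CPM under DMSO and at 3.72, 2.69 and 2.98 CPM under 915, 2.87-fold lower (log2 fold change −1.52 ± 0.138 (SE), edgeR adjusted p = 5.48e-07). Its groups did not overlap, and the spread within each was small beside the gap. Rspo3, the R-spondin known from blood vessel growth, was at 2.16, 3.20 and 2.81 CPM under DMSO and at 2.20, 1.71 and 2.29 CPM under 915 (log2 fold change −0.34, interval −0.79 to 0.11, edgeR adjusted p = 0.190). Rspo4, known from nail growth, had 15, 35 and 22 counts under DMSO and 9, 13 and 15 under 915 (log2 fold change −0.76, interval −1.67 to 0.16, edgeR adjusted p = 0.159). For both of these genes the groups overlapped. Whether Rspo1 and Rspo2 differ from Rspo3 and Rspo4 in their change was not tested.

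Promoters of the 5 ligand and R-spondin genes that fell by at least 2-fold and matched a promoter window are printed here, since these genes fell in the same libraries. RefSeq windows of the GRCr8 assembly matched 30 of the 43 genes by symbol. Each line gives the 250 bases before the gene's start, 5′ to 3′ on the gene's strand, and capitals mark CG dinucleotides, the sites that DNA methylation can occupy.
Wnt2b (chr2:195156946-195157195, minus strand): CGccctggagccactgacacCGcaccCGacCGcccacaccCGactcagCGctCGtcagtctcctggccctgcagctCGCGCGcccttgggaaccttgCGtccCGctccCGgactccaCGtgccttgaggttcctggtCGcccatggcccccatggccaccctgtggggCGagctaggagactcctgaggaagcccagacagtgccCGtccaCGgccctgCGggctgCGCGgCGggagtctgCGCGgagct
Wnt4 (chr5:154797200-154797449, plus strand): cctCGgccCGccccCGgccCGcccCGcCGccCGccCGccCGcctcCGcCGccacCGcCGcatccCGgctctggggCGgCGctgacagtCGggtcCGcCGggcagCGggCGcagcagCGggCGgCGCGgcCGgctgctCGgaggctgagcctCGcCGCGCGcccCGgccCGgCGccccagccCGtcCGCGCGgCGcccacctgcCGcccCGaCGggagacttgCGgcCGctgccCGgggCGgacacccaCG
Wnt11 (chr1:162549110-162549359, plus strand): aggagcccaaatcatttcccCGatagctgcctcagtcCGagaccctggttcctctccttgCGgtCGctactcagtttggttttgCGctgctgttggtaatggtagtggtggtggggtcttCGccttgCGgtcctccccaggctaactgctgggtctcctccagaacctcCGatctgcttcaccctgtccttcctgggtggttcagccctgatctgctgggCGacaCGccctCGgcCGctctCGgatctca
Wnt16 (chr4:51786478-51786727, plus strand): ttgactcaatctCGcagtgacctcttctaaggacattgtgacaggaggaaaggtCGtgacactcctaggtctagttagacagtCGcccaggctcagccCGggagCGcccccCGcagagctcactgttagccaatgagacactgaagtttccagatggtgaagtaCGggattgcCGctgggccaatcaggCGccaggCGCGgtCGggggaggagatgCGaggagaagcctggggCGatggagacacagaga
Rspo1 (chr5:142536040-142536289, plus strand): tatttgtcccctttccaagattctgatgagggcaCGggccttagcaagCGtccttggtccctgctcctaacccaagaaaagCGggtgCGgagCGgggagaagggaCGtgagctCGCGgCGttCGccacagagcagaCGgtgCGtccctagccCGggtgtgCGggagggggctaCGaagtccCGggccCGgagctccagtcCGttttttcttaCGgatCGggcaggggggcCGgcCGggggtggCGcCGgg
The window of Wnt4 holds 47 CG dinucleotides, those of Wnt2b and Rspo1 hold 24 each, that of Wnt16 holds 14 and that of Wnt11 holds 13. The median was 19.5 over the 12 windows of members that were lower and 25 over the 11 of tested members that were not, and 15 over 11435 windows of all tested genes. Median GC content was 64.4%, 68% and 59.6% in the same order.

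Motifs were sought on both strands of each window from 250 bases before to 50 after the start. TNAAGGTCA, the extended half-site that ERRs bind, was in 1 of 30 member windows and in 1.20% of all 33469 windows. CTTTGAT, the core bound by TCF/LEF factors, was in 1 of 30 and in 3.63% of all windows. These letters do not overlap one another. The matches, in capitals, are shown with 10 bases on either side because they are the only ones among the members.
Frzb (chr3:85772123-85772151, minus strand): ttcccctttgTGAAGGTCAgtttctccac
Tcf7 (chr10:36954267-36954293, minus strand): cccgcggtgcCTTTGATgttccgaccc
The match in Frzb, a gene that did not pass the test, begins 45 bases before the start. The match in Tcf7, which was lower, begins 4 bases before the start and runs past it.

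Frizzled receptor genes, the receptors for Wnt ligands, had 4 of 9 members lower and 0 higher. Fzd2 (ENSRNOG00000021962) was at 90.0, 92.1 and 86.0 CPM under DMSO and at 47.0, 44.2 and 50.2 CPM under 915. The mean went from 89.4 ± 3.09 to 47.1 ± 3.01 CPM (SD, n = 3 each), 1.83-fold lower (log2 fold change −0.87 ± 0.0602 (SE), edgeR adjusted p = 3.09e-08). The groups were apart by far more than the spread within them. Fzd4 (ENSRNOG00000016848), a receptor known from blood vessel growth in the retina, was at 23.6, 18.4 and 22.4 CPM under DMSO and at 10.9, 9.91 and 11.3 CPM under 915, 1.94-fold lower (log2 fold change −0.95 ± 0.0995 (SE), edgeR adjusted p = 2.23e-06). The lowest DMSO library of Fzd4, library 2, was still above every 915 library. Fzd7 (ENSRNOG00000016119), a close relative of Fzd1 and Fzd2, was at 16.2, 18.1 and 15.7 CPM under DMSO and at 11.2, 10.7 and 13.1 CPM under 915 (log2 fold change −0.46 ± 0.0985 (SE), edgeR adjusted p = 0.00133). Fzd6 (ENSRNOG00000004660), a receptor of planar cell polarity, was at 39.4, 35.4 and 42.8 CPM under DMSO and at 29.6, 30.2 and 30.8 CPM under 915 (log2 fold change −0.33 ± 0.0715 (SE), edgeR adjusted p = 0.00161). Both fell by less than Fzd2 and Fzd4, 1.38-fold and 1.25-fold, with groups that did not overlap.

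Fzd1 (ENSRNOG00000016242) did not follow its relatives Fzd2 and Fzd7 past the test. It was at 523, 561 and 546 CPM under DMSO and at 545, 526 and 545 CPM under 915, with overlapping groups, a log2 fold change of 0.037 and an interval of −0.064 to 0.14 (edgeR adjusted p = 0.541). With at least 17214 counts in every library, this interval is among the narrowest of the family. The difference between Fzd1 and its relatives was not tested. Fzd5 was at 14.1, 17.3 and 15.0 CPM under DMSO and at 14.0, 13.9 and 16.3 CPM under 915 (log2 fold change −0.018, interval −0.23 to 0.20, edgeR adjusted p = 0.901). Fzd3, a receptor known from axon guidance, was at 5.68, 6.48 and 8.43 CPM under DMSO and at 6.78, 8.07 and 6.62 CPM under 915 (log2 fold change 0.11, interval −0.21 to 0.43, edgeR adjusted p = 0.575). In both genes the ranges of the groups overlapped. Fzd9 was at 1.26, 1.44 and 1.77 CPM under DMSO and at 1.67, 1.35 and 1.30 CPM under 915 (log2 fold change 0.0027, interval −0.51 to 0.52, edgeR adjusted p = 0.994).

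Fzd10, which the deposited table lists as a pseudogene and RefSeq as a protein-coding gene, was at 3.07, 2.29 and 2.76 CPM under DMSO and at 1.91, 1.65 and 2.09 CPM under 915. All 915 libraries were below all DMSO libraries, yet the difference did not pass (log2 fold change −0.47, edgeR adjusted p = 0.0631). It passed without DMSO library 2 (−0.57) and with library sizes alone (−0.53), and over its alternatives the adjusted p ran from 0.0402 to 0.214 (edgeR and DESeq2).

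Neither co-receptor passed the test. Lrp5 (ENSRNOG00000015911), known for its part in bone mass, was at 135, 146 and 142 CPM under DMSO and at 142, 141 and 137 CPM under 915. Its log2 fold change was 0.039 with an interval of −0.068 to 0.15 (edgeR adjusted p = 0.544). Lrp6 (ENSRNOG00000006338), the main co-receptor of β-catenin signals in development, was at 85.4, 76.0 and 86.3 CPM under DMSO and at 68.4, 81.9 and 65.2 CPM under 915. Library 2 of 915 was above DMSO library 2, and the other 915 libraries were below all DMSO libraries. The log2 fold change of Lrp6 was −0.15 (interval −0.32 to 0.013, edgeR adjusted p = 0.116). It passed without 915 library 2 (−0.25), without DMSO library 2 (−0.20) and with library sizes alone (−0.21), and its adjusted p ran from 0.00656 to 0.400 over its edgeR and DESeq2 alternatives.

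Secreted antagonist genes moved both ways: of 9, Sfrp2 and Sfrp5 were lower, Dkk3 was higher, Sfrp1, Frzb, Wif1 and Dkk2 did not pass, and Dkk1 and Dkk4 were too scarce to test. Sfrp2 (ENSRNOG00000009465), a secreted Frizzled-related protein known from fibroblasts, was at 45.0, 43.7 and 43.7 CPM under DMSO and at 26.9, 28.6 and 30.7 CPM under 915. Its groups did not overlap, and it was 1.48-fold lower (log2 fold change −0.57 ± 0.0648 (SE), edgeR adjusted p = 5.35e-06). Sfrp1 (ENSRNOG00000017783), a protein of the same family, was at 51.7, 49.0 and 50.6 CPM under DMSO and at 47.7, 44.3 and 49.2 CPM under 915, with overlapping groups. Its log2 fold change was −0.049 with an interval of −0.18 to 0.078 (edgeR adjusted p = 0.520). That interval does not reach the lower change of Sfrp2, whose own interval was −0.71 to −0.43, although the difference between the genes was not tested.

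Sfrp5 (ENSRNOG00000014940), a secreted antagonist known from fat tissue, had 36, 56 and 37 counts under DMSO and 8, 15 and 10 under 915. It was 3.35-fold lower (log2 fold change −1.74 ± 0.387 (SE), edgeR adjusted p = 0.00182), with a wide interval of 1.88-fold to 5.96-fold. With a minimum of 1 CPM in 3 libraries it was not tested. Epicardial and mesothelial markers, 119 to 125 CPM in DMSO and 66.9 to 69.0 CPM in 915 when summed, were lower in the same libraries. The sums of all other marker lists except the cardiomyocyte list were lower there too, and a link to Sfrp5 was not tested.

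Dkk3 (ENSRNOG00000016343), a member of the Dickkopf family that is not a classical Lrp blocker, was at 227, 211 and 206 CPM under DMSO and at 256, 241 and 249 CPM under 915. Every 915 library was above every DMSO library. The mean went from 215 ± 10.8 to 249 ± 7.77 CPM (SD, n = 3 each), 1.20-fold higher (log2 fold change 0.26 ± 0.0489 (SE), edgeR adjusted p = 5.04e-04). Frzb (ENSRNOG00000007765), which binds Wnts and is known from cartilage, was at 10.6, 9.61 and 9.47 CPM under DMSO and at 7.64, 8.77 and 7.82 CPM under 915. Its groups did not overlap but the difference did not pass (log2 fold change −0.24, edgeR adjusted p = 0.0618). It passed without 915 library 2 (−0.30) and with library sizes alone (−0.30), and over its alternatives the adjusted p ran from 0.0263 to 0.198 (edgeR and DESeq2). Wif1, a secreted protein that binds Wnts, was at 6.56, 5.13 and 5.37 CPM under DMSO and at 3.98, 5.26 and 4.90 CPM under 915 (log2 fold change −0.23, interval −0.54 to 0.091, edgeR adjusted p = 0.222). Its groups overlapped. Dkk2 had 31, 42 and 17 counts under DMSO and 20, 19 and 20 under 915 (log2 fold change −0.40, interval −1.19 to 0.39, edgeR adjusted p = 0.395). Dkk1, the best known Lrp blocker, was at 0 counts in all 6 libraries, and Dkk4 had 1 to 8 counts in any library.

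Among the TCF/LEF genes, whose products carry the β-catenin signal to DNA, 3 of 4 were lower and 0 higher. Tcf7l1 (ENSRNOG00000014753), which mostly acts as a repressor, was at 82.2, 78.2 and 78.7 CPM under DMSO and at 48.3, 53.3 and 50.0 CPM under 915. Its mean went from 79.7 ± 2.17 to 50.5 ± 2.53 CPM (SD, n = 3 each), 1.53-fold lower (log2 fold change −0.61 ± 0.0552 (SE), edgeR adjusted p = 5.42e-07). The groups were well separated. Tcf7 (ENSRNOG00000005872), itself a known target of β-catenin, was at 5.51, 5.51 and 5.14 CPM under DMSO and at 3.58, 3.00 and 3.17 CPM under 915, 1.60-fold lower (log2 fold change −0.68 ± 0.139 (SE), edgeR adjusted p = 0.00103). Lef1 (ENSRNOG00000010121), another known target and an activator, was at 3.07, 2.67 and 3.34 CPM under DMSO and at 1.18, 1.90 and 2.31 CPM under 915. Its groups did not overlap, and 915 library 1 was the lowest. It was 1.63-fold lower (log2 fold change −0.70 ± 0.232 (SE), edgeR adjusted p = 0.0213). The call of Lef1 was lost without DMSO library 1, DMSO library 3 or 915 library 1 (log2 fold change −0.70, −0.63 and −0.47), and over its alternatives the edgeR or DESeq2 adjusted p ran from 0.00770 to 0.0900.

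Tcf7l2 (ENSRNOG00000049232), the factor known for its link to glucose metabolism, was at 42.3, 35.9 and 39.9 CPM under DMSO and at 41.5, 42.2 and 39.1 CPM under 915. The groups overlapped, and the log2 fold change was 0.10 with an interval of −0.039 to 0.25 (edgeR adjusted p = 0.211). A decrease of the size seen in Tcf7l1, −0.61, lies outside that interval.

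Other genes of the pathway were counted in lists that hold none of the genes above. Beside their counts stand the shares over all genes tested, 25.5% lower and 24.3% higher. Of 20 tested genes of Wnt secretion and of the cell surface, 11 were lower and 2 higher, with a median log2 fold change of −0.43 beside −0.010 over all genes tested. Gpc4, a heparan sulfate proteoglycan that binds Wnts, was at 181, 186 and 190.2 CPM under DMSO and at 86.8, 87.0 and 85.0 CPM under 915 (log2 fold change −1.06 ± 0.0470 (SE), edgeR adjusted p = 3.94e-10). Adgra2, the receptor that works with Reck in Wnt7 signals, was 2.10-fold lower, and Reck itself 1.58-fold lower (edgeR adjusted p = 1.18e-09 and 5.56e-06). Ptk7, a co-receptor of planar cell polarity, fell 1.51-fold (edgeR adjusted p = 1.14e-07).

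The higher genes of that list, named after their values were seen, were Lgr6, a receptor for R-spondins, and Ryk, a Wnt receptor of its own class. Lgr6 was at 2.47, 2.43 and 2.83 CPM under DMSO and at 6.44, 5.17 and 5.66 CPM under 915, 2.31-fold higher (log2 fold change 1.21 ± 0.151 (SE), edgeR adjusted p = 1.30e-05). Its groups were apart, in the direction opposite to Rspo1 and Rspo2. Lgr4 and Lgr5, the other R-spondin receptors and also named after their values were seen, did not pass (log2 fold change 0.14 and 0.37, edgeR adjusted p = 0.0994 and 0.455). Ryk rose 1.26-fold (edgeR adjusted p = 7.99e-04). Sostdc1, a scarce secreted antagonist that was also named after its values were seen, had 38, 19 and 28 counts under DMSO and 0, 7 and 2 under 915. It could be tested through its DMSO libraries alone, since no 915 library was past the minimum count, and nothing is read from its call among the 11 lower genes.

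Of 18 tested genes known as β-catenin targets, 9 were lower and 3 higher (median −0.43), where 25.5% and 24.3% of all genes tested were. Nkd1 (ENSRNOG00000014293), a feedback inhibitor of Dishevelled, was at 45.4, 44.8 and 43.0 CPM under DMSO and at 8.66, 9.20 and 8.36 CPM under 915. The mean fell from 44.4 ± 1.24 to 8.74 ± 0.425 CPM (SD, n = 3 each), 4.92-fold (log2 fold change −2.30 ± 0.0708 (SE), edgeR adjusted p = 1.29e-11). All libraries of a group were close together. Its relative Nkd2 was at 42.4, 36.4 and 40.4 CPM under DMSO and at 16.8, 16.3 and 16.6 CPM under 915, 2.32-fold lower (log2 fold change −1.21 ± 0.0707 (SE), edgeR adjusted p = 5.40e-09). Birc5, a survival protein that is also a gene of mitosis, and the cyclin gene Ccnd1 fell 2.90-fold and 1.71-fold (edgeR adjusted p = 5.67e-09 and 1.28e-08). The 3 higher genes, named after their values were seen, were Myc, Fosl1 and Jun at 1.87-fold, 1.46-fold and 1.33-fold (edgeR adjusted p = 7.51e-08, 0.00152 and 2.57e-04). They are known as growth and stress response genes. Why some targets rose and others fell was not tested. Calls in the list went both ways. Fibroblast markers, 27776 to 29548 CPM in DMSO and 15041 to 15804 CPM in 915 when summed, moved in the same libraries. Most of that sum came from Col1a1, Col3a1 and Fn1, and a link to the target genes was not tested. Of the matched target genes, 4 (Lgr5, Notum, Rnf43 and Apcdd1) are also in the list of secretion and surface genes.

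Of 29 tested genes of the intracellular β-catenin machinery, 7 rose and 7 fell, a share each way that is near that of all genes tested (24.3% higher and 25.5% lower). The median was −0.047. With library sizes in place of TMM scaling 4 were higher and 11 lower, and without 915 library 1 there were 4 higher and 5 lower. The genes with the smallest p were Bcl9l, a β-catenin coactivator, at 1.34-fold lower, the scaffold gene Apc2 at 1.58-fold lower, the corepressor gene Ctbp2 at 1.34-fold lower and the scaffold gene Amer1 at 1.49-fold lower (edgeR adjusted p = 2.43e-06, 8.86e-06, 1.48e-04 and 3.47e-04). The higher genes, named after their values were seen, were Ctbp1, Csnk1a1, Btrc, Tle2, Gsk3a, Dvl1 and Fbxw11, at 1.10-fold (Fbxw11) to 1.22-fold (Tle2), with edgeR adjusted p from 0.00118 to 0.0381. The kinase gene Gsk3b, named after its values were seen for its place in the pathway, did not pass (log2 fold change −0.062, interval −0.18 to 0.053, edgeR adjusted p = 0.361). Of 12 tested genes of planar cell polarity 5 were lower and 0 higher (median −0.16), against the same 25.5% and 24.3% over all genes tested. Without DMSO library 2, 4 were lower and 1 higher. Among them Prickle1, Prickle2, Vangl2 and Vangl1, core components of that system, were 1.22-fold, 1.25-fold, 1.53-fold and 1.19-fold lower (edgeR adjusted p = 2.31e-04, 3.45e-04, 0.00148 and 0.00772).

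**Figure D4:**
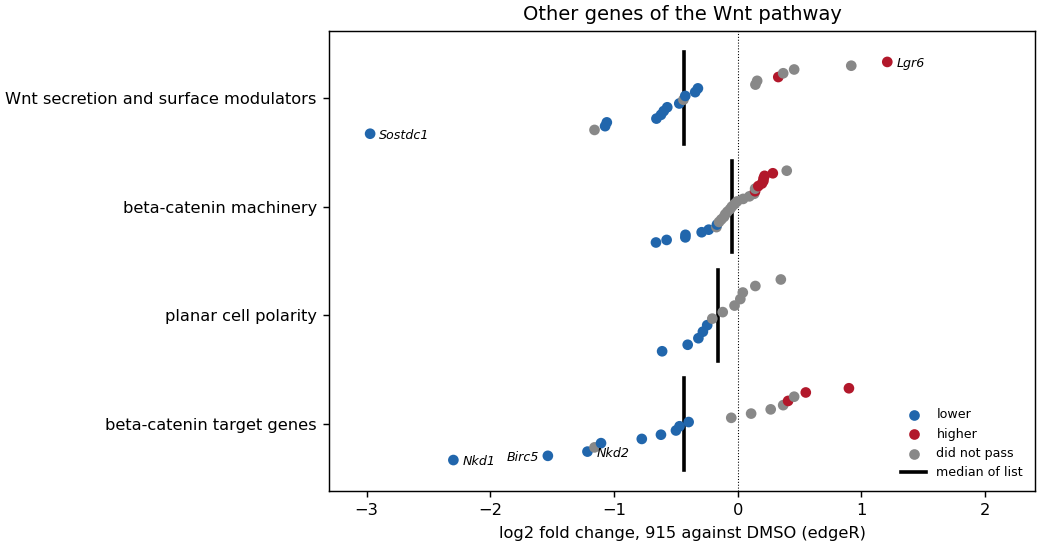
Log2 fold change (horizontal axis, 915 against DMSO) of the tested genes in 4 other lists of the Wnt pathway, 1 point a gene, ordered by value within a list, with a black bar at the list's median. Blue genes were lower, red genes higher and gray genes did not pass. Nkd1 lies at −2.30 and Lgr6 at 1.21, while the β-catenin machinery is centred near 0.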

How the data were processed

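Gene counts deposited by the authors for 6 libraries were used, with 3 per group. Per the submitters' processing notes they come from STAR (version 2.5.1a) and Subread featureCounts (version 1.4.6-p5) on the rat build Rnor_6.0. Whether counting used strand, and how multi-mapping reads were handled, is not given in the sources used here. Reads of overlapping genes and of close relatives may therefore be shared or lost. CPM values deposited by the authors equal the counts divided by 1 total per library, larger than the sum of the table. Repeats of an Ensembl identifier (993 of 22641 rows) were dropped.

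EdgeR 4.0.16 in R 4.3.3 filtered (filterByExpr, 14253 genes kept), scaled by TMM and tested group alone with the quasi-likelihood model. Tests were two-sided, and p-values were adjusted by Benjamini-Hochberg over the whole set of tested genes. An SE is the log2 fold change divided by the square root of F, and intervals are 95%. CPM means are not TMM-scaled, so their ratio differs slightly from the fold. The biological coefficient of variation was 6.84%. The procedure was tested on simulated data. Every pair of libraries within a group differed beyond counting noise (chi-square per df 5.27 to 11.0).

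The genes, the 11 lists (171 entries, 149 matched, 1 of them by a synonym) and the tests were chosen with earlier results of these data known. Named genes are every member plus, for each pathway list, up to 4 genes with the smallest p past the threshold. Other genes are named where the text turns on them and were chosen after their values were seen. Alternatives were DESeq2 1.42.0, RLE factors, library sizes alone, 2 other filters, a block for the replicate number and leaving out each library. Promoter sequences are from RefSeq on GRCr8, and no coordinates of the counted genes are given. No gene lengths were used, so levels are not compared between genes.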

Additional observations from a re-analysis of the deposited data

How the results depend on the processing

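The 15 lower and 2 higher members were called again with DESeq2, with RLE size factors, with no filter on low counts and with the replicate number as a block. With a minimum of 1 CPM in 3 libraries 14 of the 15 were called, and Sfrp5 was no longer tested. With library sizes alone 1 member was higher and 18 lower, since Wnt9a lost its call and Frzb, Fzd10 and Lrp6 gained one. That scaling moved the median of all genes to −0.067, and Fzd1, Fzd9 and Lrp5, which pass in neither, changed sign to −0.020, −0.053 and −0.018. In the β-catenin machinery list it gave 4 higher and 11 lower genes. Leaving out 1 library at a time gave 14 to 17 lower and 1 to 2 higher members, 2939 to 3496 higher and 3105 to 3551 lower genes in all, 4 to 6 higher genes of the β-catenin machinery, 0 to 1 of planar cell polarity and 1 to 2 endothelial markers. It turned the sign of some members that were not called: Fzd3 (−0.018 to 0.28), Fzd5 (−0.10 to 0.077), Fzd9 (−0.12 to 0.14), Wnt5a (−0.066 to 0.00098) and Wnt5b (−0.20 to 0.066). With the replicate block 2996 genes were higher and 3197 lower, and 4 genes of the β-catenin machinery were higher and 5 lower. Same-numbered libraries did not deviate together (correlations of −0.034, −0.11 and −0.090). With 3 libraries in a group, these values cannot show whether libraries of the same number shared a cell isolation. In the 250 bases before the start alone, CTTTGAT was in 0 of 30 member windows and TNAAGGTCA in 1. The causes of these shifts were not tested. Depth limits the 9 members with at most 13 counts in any library.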
